A study of Mus musculus with 131 samples.

Results

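Active enhancers of adult mouse hepatocytes were taken as H3K4me1 peaks that also carried H3K27ac and lay away from genes' ends. They were selected on the WT ChIP-Seq lists: a member was a peak of the WT H3K4me1 list that overlapped a WT H3K27ac peak by at least 1 bp and whose nearest edge was more than 2 kb from both ends of every gene of the expression table. This gave 18167 of 70466 H3K4me1 peaks, or 25.8%. The rule left 30974 H3K4me1 peaks at the same distance without H3K27ac, called primed regions here, and 14196 peaks with H3K27ac within 2 kb of a gene end, called proximal regions. Because these ChIP-Seq values chose the enhancers, their heights are only described. The 205 enhancers just inside the distance limit, 2.0 to 2.2 kb from a gene end, had a median of 72.3 H3K27ac tags, and the 247 peaks just outside it, at 1.8 to 2.0 kb, had 65.9, in tags scaled to 10000000 per library.

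Enhancers are stretches of DNA, often far from the promoter they act on, where transcription factors bind and raise the expression of a gene. H3K4me1 is deposited by MLL3 and MLL4 at enhancers in general, while acetylation of H3K27 by p300 and CBP marks those in use. DNA methylation at CpG sites tends to be low where factors are bound, and TET enzymes start its removal by oxidising 5-methylcytosine to 5-hydroxymethylcytosine (5hmC).

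The study followed methylation of the liver after birth and asked whether TET2 and TET3 carry out its loss. All mice were C57Bl, and hepatocytes were isolated by collagenase digestion and a Percoll gradient and sorted as CD45-negative cells, with liver given as the tissue on the ATAC-Seq and HNF6 labels. WT hepatocytes came from mice of 1 week (newborn), 3 weeks and 15 weeks (adult). In DKO mice, which carry floxed Tet2 and Tet3 (Tet2F/Tet3F), Cre was delivered by an AAV8 virus under the hepatocyte-specific Tbg promoter at 1 day or 3 weeks, and hepatocytes were taken at 15 weeks. In RRBS and RNA-Seq, controls were WT mice given the same virus at the same times and taken at the same age. They share the injection and Cre with the DKO but carry no deletion. The labels give no injection for the adult WT libraries of WGBS and of the histone marks. In those assays the deletion cannot be told apart from the virus and Cre. Cells other than hepatocytes keep both genes in this model. WGBS had 1 library each of newborn, adult WT and DKO injected at 1 day, H3K4me1 and H3K27ac ChIP-Seq 1 library each of adult WT and DKO injected at 1 day, and 5hmC 1 library of WT mice of 20 days. ATAC-Seq and HNF6 ChIP-Seq had 2 libraries each of wt and of ko, deleted after birth. RRBS and RNA-Seq columns that could be tied to a group came from 2 and 3 WT mice of 3 weeks, 3 and 3 controls injected at 1 day, 2 and 3 DKO injected at 1 day, 3 and 3 controls injected at 3 weeks, and 2 and 2 DKO injected at 3 weeks. RNA-Seq had in addition 1 library of 1 week and 3 of uninjected 15-week mice. RRBS values are also given, with no test, for 2 samples of 1-week WT hepatocytes kept in vitro, for fat of 25 weeks and neutrophils of 36 weeks (1 WT sample each), and for 2 mice with floxed InsR in which a Cre virus removed the insulin receptor from hepatocytes after birth, whose age the labels do not give. Differences between groups with 1 library have no replicate check, and elsewhere p-values measure the spread between these libraries.

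The deposited methylation tables give fractions without coverage, so the depth behind each value is unknown beyond the authors' minimum of 15 readings per WGBS tile and 10 per RRBS tile. Sequencing totals were 54164080 to 90249422 tags for ATAC-Seq, 13437081 to 31259057 for HNF6, 27544889 to 33777718 for the histone marks and 25209919 for 5hmC. The ATAC-Seq lists held 47639 and 57166 peaks in wt and 50704 and 65515 in ko. The second HNF6 ko list held 34665 peaks against 4387 to 9355 in the other 3, so the HNF6 shares of enhancers are also given with equal numbers of peaks. In RNA-Seq, all 3 libraries of 3 weeks and control 3 injected at 3 weeks had Xist at 48.0 to 88.1 FPKM and Y-linked transcripts near 0, while the rest were at 0.0609 FPKM or less for Xist. Age and sex can therefore not be told apart in the comparison of 15 with 3 weeks. The RRBS mice of 3 weeks and the third RRBS control injected at 3 weeks are among these animals, so RRBS shares this limit. After deletion at 3 weeks the controls thus include 1 such animal and the DKO none, and the part of sex there was not tested. Whole-gene Tet2 and Tet3 values say nothing of the floxed exons: Tet2 was at 2.13, 1.63 and 0.890 FPKM in controls injected at 1 day and at 4.08, 2.82 and 3.16 in the DKO, and Tet3 at 2.11, 2.55 and 1.68 against 2.78, 1.74 and 2.65. The hepatocyte marker Alb was listed at 0 in every library, while the other 8 hepatocyte markers were expressed.

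The sequences below show 6 enhancers, read from the mm9 genome. The top 4 are the enhancers whose mean methylation fell most from newborn to adult, each shown around its 200 bp tile with the largest fall, and the last 2 carry the highest WT H3K27ac peak scores and are shown around the middle of their strongest WT ATAC-Seq peak. CpG sites, the positions at which methylation was read, are in capitals.
Sash1 enhancer (chr10:8671351-8671650, plus strand): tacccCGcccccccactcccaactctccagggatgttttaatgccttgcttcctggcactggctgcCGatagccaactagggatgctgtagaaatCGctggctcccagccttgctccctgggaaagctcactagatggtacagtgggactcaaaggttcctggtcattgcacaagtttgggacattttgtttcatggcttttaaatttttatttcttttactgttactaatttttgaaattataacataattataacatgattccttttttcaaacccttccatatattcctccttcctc
2310043O21Rik enhancer (chr15:38499551-38499850, plus strand): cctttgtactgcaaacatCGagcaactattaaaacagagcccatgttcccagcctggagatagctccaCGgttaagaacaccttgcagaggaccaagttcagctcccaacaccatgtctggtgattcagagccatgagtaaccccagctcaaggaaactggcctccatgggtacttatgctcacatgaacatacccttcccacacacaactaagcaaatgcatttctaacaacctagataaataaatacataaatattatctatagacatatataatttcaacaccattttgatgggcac
Spag9 enhancer (chr11:93997151-93997450, plus strand): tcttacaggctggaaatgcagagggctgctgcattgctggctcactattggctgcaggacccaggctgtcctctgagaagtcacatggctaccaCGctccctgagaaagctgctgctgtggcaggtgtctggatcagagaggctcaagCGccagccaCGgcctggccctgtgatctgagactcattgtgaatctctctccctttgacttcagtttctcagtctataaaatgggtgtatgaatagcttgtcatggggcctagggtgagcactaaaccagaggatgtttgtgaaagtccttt
4932438H23Rik enhancer (chr16:91085151-91085450, plus strand): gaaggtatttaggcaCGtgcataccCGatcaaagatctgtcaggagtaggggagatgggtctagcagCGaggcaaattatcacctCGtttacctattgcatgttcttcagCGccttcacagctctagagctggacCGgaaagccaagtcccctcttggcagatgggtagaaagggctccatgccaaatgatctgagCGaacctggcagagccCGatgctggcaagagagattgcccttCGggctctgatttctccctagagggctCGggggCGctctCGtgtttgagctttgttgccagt
Glrx5 enhancer (chr12:106282928-106283227, plus strand): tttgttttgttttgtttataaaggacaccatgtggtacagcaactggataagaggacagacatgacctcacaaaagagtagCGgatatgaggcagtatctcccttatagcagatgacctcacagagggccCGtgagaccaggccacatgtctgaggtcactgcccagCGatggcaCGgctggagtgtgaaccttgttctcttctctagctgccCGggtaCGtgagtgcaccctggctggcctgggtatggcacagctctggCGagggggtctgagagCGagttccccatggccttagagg
Mroh2a enhancer (chr1:90150163-90150462, plus strand): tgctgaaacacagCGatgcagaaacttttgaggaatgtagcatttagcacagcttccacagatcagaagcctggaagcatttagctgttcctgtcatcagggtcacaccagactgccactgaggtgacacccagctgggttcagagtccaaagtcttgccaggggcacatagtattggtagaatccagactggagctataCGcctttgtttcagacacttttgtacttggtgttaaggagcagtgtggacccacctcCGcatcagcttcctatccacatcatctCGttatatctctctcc

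These 6 windows held 3, 2, 3, 12, 8 and 4 CpG sites, in the order shown, while the tiles whose values follow are 200 bp long. The Sash1 tile was 87.9% methylated in newborn, 2.33% in adult and 83.3% in DKO. The 2310043O21Rik tile went from 87.5% to 0% and was at 63.6% in DKO. In the Spag9 tile the values were 92.6%, 4.84% and 82.9%, and in the 4932438H23Rik tile 84.9%, 3.20% and 77.8%. In all 4 tiles nearly all methylation of the newborn was gone in the adult, which the choice of the largest fall largely sets. The DKO was closer to the newborn than to the adult, but that adult value was chosen as extreme. The windows with the highest H3K27ac scores were placed at WT ATAC-Seq peaks and not at the largest fall. Their newborn levels therefore cannot be compared with those above. The Glrx5 tile was at 45.3% in newborn, 5.65% in adult and 51.5% in DKO, and the Mroh2a tile at 30.5%, 1.92% and 56.5%.

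The Sash1 enhancer itself (chr10:8670137-8672644) is intergenic, 64269 bp from Sash1. Its mean over 9 tiles was 81.8% in newborn, 12.6% in adult and 82.0% in DKO, and 8 of the 9 tiles fell by at least 35 points. It was also the enhancer with the largest DKO minus adult difference, 69.5 points. Its strongest ATAC-Seq peak had 3.79 and 6.55 tags in wt and 3.27 and 3.38 in ko, so that the wt libraries were the higher ones by a small margin in the first. In the DKO it kept an H3K4me1 peak of 5.79 tags, against 55.4 in WT, and had no H3K27ac peak, where the WT peak was weak with 5.33 tags. Here and below, tags are those of a whole peak, which can run beyond the enhancer, and peak widths were not compared.

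The enhancer at 2310043O21Rik (chr15:38498357-38500403) had 7 of 9 tiles demethylated and means of 85.6%, 18.9% and 79.0%. It lies inside the 2310043O21Rik gene of the expression table and outside the genes of the annotation used here. ATAC-Seq peaks there held 14.3 and 12.1 tags in wt and 7.85 and 7.70 in ko, without overlap. Its H3K27ac peak was at 412 tags in WT and 80.2 in DKO. The Spag9 enhancer (chr11:93996036-93998198), which overlaps a noncoding exon of B230206L02Rik, had means of 74.1%, 8.61% and 69.4%. Unlike the Sash1 enhancer it kept both marks, with 661 H3K27ac tags in WT and 686 in DKO. Only the second wt library had an ATAC-Seq peak in it. The enhancer in an annotated intron of 4932438H23Rik (chr16:91084667-91086162), 15277 bp from that gene in the expression table, fell from 66.7% to 3.25% and was at 61.1% in DKO. It had ATAC-Seq peaks of 6.09 and 4.34 tags in wt and none in either ko library, and its H3K27ac peak, of 24.3 tags in WT, was missing from the DKO list.

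Large DKO minus adult differences were also found at enhancers inside the genes Itpr2 and Lpp. The Itpr2 enhancer (chr6:146144239-146146216), which overlaps a noncoding exon in the gene of an IP3 receptor, which releases calcium from the endoplasmic reticulum, was at 63.8% in newborn, 13.2% in adult and 82.2% in DKO. The Lpp enhancer (chr16:24932708-24934562), in an intron of the gene for a focal adhesion protein, was at 70.5%, 16.9% and 80.6%. In both the DKO was above the newborn, by 18.4 and 10.1 points, where the mean over all active enhancers was 4.19 points. Both were named for a large DKO minus adult difference, so a high DKO value is partly set by the choice.

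The 4 enhancers with the highest H3K27ac scores fell by 13.6 (Glrx5), 23.0 (Mroh2a), 11.9 (Hjurp) and 10.2 points (Tacc2) from newborn to adult, where the mean over all active enhancers was 13.1 points. The Glrx5 enhancer (chr12:106282032-106284515), near the gene of a mitochondrial glutaredoxin, had a score of 194 and went from 78.0% to 64.4%, with 79.8% in DKO. Its H3K27ac peak had 735 tags in WT and 26.9 in DKO. The Mroh2a enhancer (chr1:90149056-90150910) was at 64.6%, 41.6% and 71.3% and kept its H3K27ac, with 162 tags in WT and 228 in DKO. It carried the strongest 5hmC peak of the named enhancers, 607 tags. The enhancer nearest to Hjurp (chr1:90180442-90185773), in an intron of the cold receptor gene Trpm8, was at 54.6%, 42.6% and 56.6% and had ATAC-Seq peaks of 36.6, 36.0, 47.8 and 51.1 tags in wt 1, wt 2, ko 1 and ko 2. The Tacc2 enhancer (chr7:137740296-137742209) was at 78.4%, 68.3% and 83.8% and had no ATAC-Seq peak in any of the 4 libraries.

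The longest enhancers spanned large parts of genes. The one in Egfr (chr11:16654642-16747060), the epidermal growth factor receptor, was 92419 bp long, and 120 of its 327 tiles were demethylated after birth. Its mean was 76.8% in newborn, 48.0% in adult and 79.8% in DKO, and it held 19 H3K27ac peaks in both the WT and the DKO list. The one in Shb (chr4:45455985-45541257), an adaptor protein of receptor tyrosine kinases, was 85273 bp long, with 83 of 379 tiles demethylated and means of 66.7%, 47.3% and 72.7%. RRBS gave 24 tiles in the Shb enhancer with values in all mice of the 5 groups. Over these, the mice of 3 weeks averaged 42.3% and 39.5%, controls injected at 1 day 30.4%, 35.5% and 33.4%, and DKO injected at 1 day 62.9% and 67.4%. Controls injected at 3 weeks were at 34.0%, 34.2% and 30.9% and DKO injected at 3 weeks at 52.3% and 53.4%. Both DKO groups stood above both control groups and above the mice of 3 weeks, without overlap. Of 12389 enhancers with at least 5 tiles, none had a DKO mean 35 points or more below the newborn mean.

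As a class, the active enhancers had a median length of 2100 bp, with an interquartile range of 1258 to 3640 bp, against medians of 790 bp in primed and 1960 bp in proximal regions. They covered 55.4 Mb, and 61.6% lay inside a gene body. By annotation, 46.2% were intronic without an exon, 33.7% intergenic and 20.1% overlapped an exon. WGBS covered autosomes, where 17957 enhancers lay, and 17792 of them contained at least 1 whole 200 bp tile with a value in all 3 libraries.

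Mean methylation of the active enhancers fell from newborn to adult in the WT, and the mean of the DKO library was not below the newborn. Averaged over enhancers, the methylation level was 65.5% in the newborn, 52.4% in the adult and 69.7% in the DKO library, with medians of 68.9%, 53.3% and 74.0%. The fall from newborn to adult was thus 13.1 points, the DKO stood 17.3 points above the adult and 4.19 points above the newborn. The direction was widely shared among enhancers: newborn was above adult in 88.2%, DKO above adult in 94.9%, and DKO above newborn in 72.1%. These differences share libraries (each library enters 2 of them), and with 1 library per group they were not tested. Across all tiles of the genome the means were 78.7%, 75.8% and 76.4%.

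**Figure D1:**
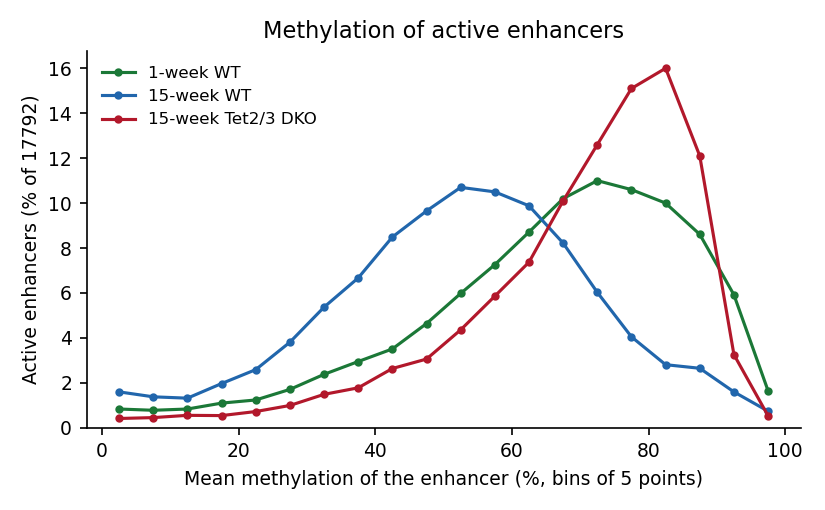
Share of 17792 active enhancers (vertical axis, %) by their mean WGBS methylation (horizontal axis, %, in bins of 5 points) in 1-week WT, 15-week WT and 15-week DKO hepatocytes, 1 library each. The newborn curve peaks at 70 to 75% with 11.0% of enhancers, the adult curve at 50 to 55% with 10.7%, and the DKO curve at 80 to 85% with 16.0%.

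The whole distribution moved, as the plot of enhancers by methylation level shows. Enhancers with a mean of at least 80% made up 26.2% in newborn, 7.80% in adult and 31.9% in DKO. Those under 20% made up 3.55%, 6.27% and 1.97%. Most enhancers were therefore neither fully methylated nor fully free of methylation in any of the 3 libraries. Primed regions moved in the same directions, with means of 63.0%, 51.7% and 66.7%, and proximal regions moved less, with 51.8%, 44.8% and 55.6%.

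**Figure D2:**
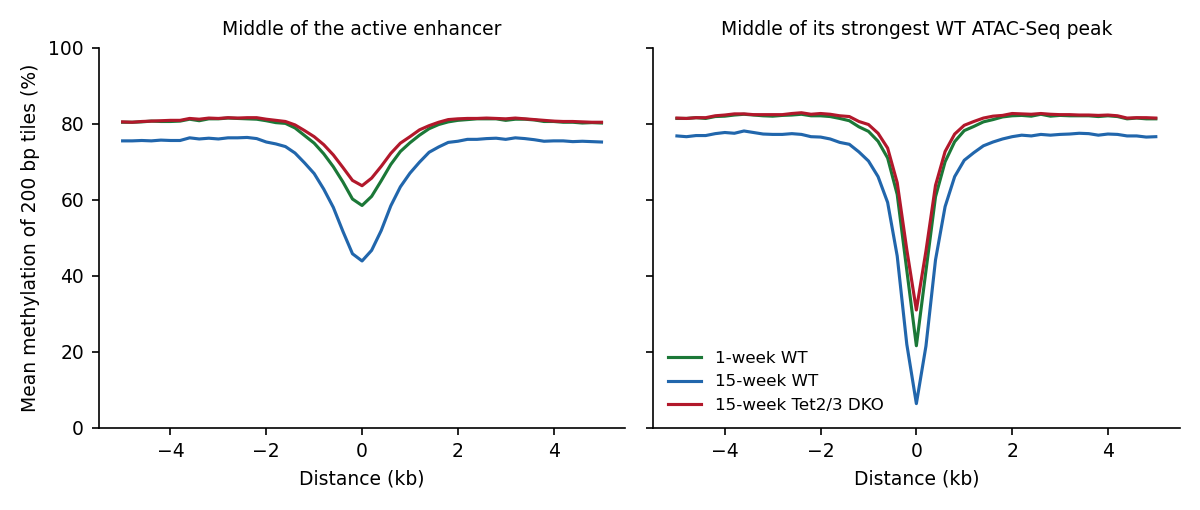
Mean methylation of 200 bp tiles (vertical axis, %) against distance (horizontal axis, kb) from the middle of the active enhancer (left) and from the middle of its strongest WT ATAC-Seq peak (right), in 1-week WT, 15-week WT and 15-week DKO hepatocytes, 1 library each. All 3 lines dip at the middle, and the adult line is lowest at every distance, with 6.37% at the ATAC-Seq peak middle against 21.6% in newborn and 31.0% in DKO.

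Methylation was lowest at the centre of the enhancers. There it was 58.5% in newborn, 43.9% in adult and 63.7% in DKO, while at 5 kb to the left it was 80.4%, 75.5% and 80.5%. The dip was deeper and narrower around open chromatin: at the middle of the strongest WT ATAC-Seq peak of 10440 enhancers the values were 21.6%, 6.37% and 31.0%. Part of the low methylation was thus already there in the newborn and was kept in the DKO. These ATAC-Seq peaks were called in WT, so their middle was chosen by accessibility in WT. Primed regions had a similar dip at their centre, with 57.6%, 45.4% and 62.2%.

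To see where within the enhancers methylation was lost, their 202773 tiles of 200 bp were counted with a limit of 35 points, that of the study's methods. From newborn to adult, 31565 tiles, or 15.6%, fell by at least this much, against 1.63% of all 8049849 tiles of the genome. Only 734 tiles, or 0.362%, gained it (0.262% of all tiles). Between adult and DKO, 44929 tiles, or 22.2%, were higher in DKO (1.98% of all tiles) and 76, or 0.0375%, lower (0.240% of all tiles). The demethylated tiles were spread over 10406 enhancers, 58.5% of those with tiles, and 1768 enhancers had at least 5 of them. The share of demethylated tiles was 13.1% in primed regions, 11.8% in proximal regions and 0.802% outside every H3K4me1 peak. The enhancers held 31565 of the 131337 demethylated tiles of the genome.

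The tiles demethylated after birth averaged 75.0% in newborn, 19.7% in adult and 75.7% in DKO. Since newborn and adult chose these tiles, only the DKO value is independent of the choice, and it was on average at the newborn level. Of these tiles, 89.3% were at least 35 points higher in DKO than in adult, against 49.5% of the demethylated tiles outside H3K4me1 peaks. Only 98 of the 31565, or 0.310%, were also at least 35 points below the newborn in DKO. Tiles that were under 20% at both ages, 14.3% of all enhancer tiles, averaged 6.74%, 3.22% and 19.8%, so that the DKO was above both ages there. Tiles of at least 80% at both ages, 33.5% of the total, averaged 92.3%, 90.0% and 89.3%. The remaining 36.6%, between these classes, averaged 63.9%, 54.0% and 72.6%. Another 16736 tiles were higher in DKO by the limit without having fallen by it after birth, and averaged 34.3% in newborn, 15.8% in adult and 64.2% in DKO. Newborn, adult and DKO values all entered the choice of these tiles, so the DKO level above the newborn is partly set by it. Per 200 bp, demethylated tiles had a mean of 2.47 CpG sites, tiles high at both ages 2.53, tiles between the classes 2.66 and tiles low at both ages 3.36, with a median of 2 in every class.

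RRBS gave an independent view of the same enhancers in single mice, at CpG-rich fragments released by a restriction enzyme. Enhancer methylation was higher in DKO mice than in controls after deletion at either time, and the difference was larger after deletion at 1 day. Over 6896 enhancer tiles of 100 bp valued in every library, the mean was 39.2% and 39.5% in the mice of 3 weeks and 32.2%, 33.0% and 32.5% in the controls injected at 1 day. It was 48.8% and 49.4% in DKO injected at 1 day. Controls injected at 3 weeks averaged 33.4%, 33.1% and 33.8%, and DKO injected at 3 weeks 42.4% and 42.6%. Every DKO mouse was above every control, and the DKO injected at 1 day were above those injected at 3 weeks.

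**Figure D3:**
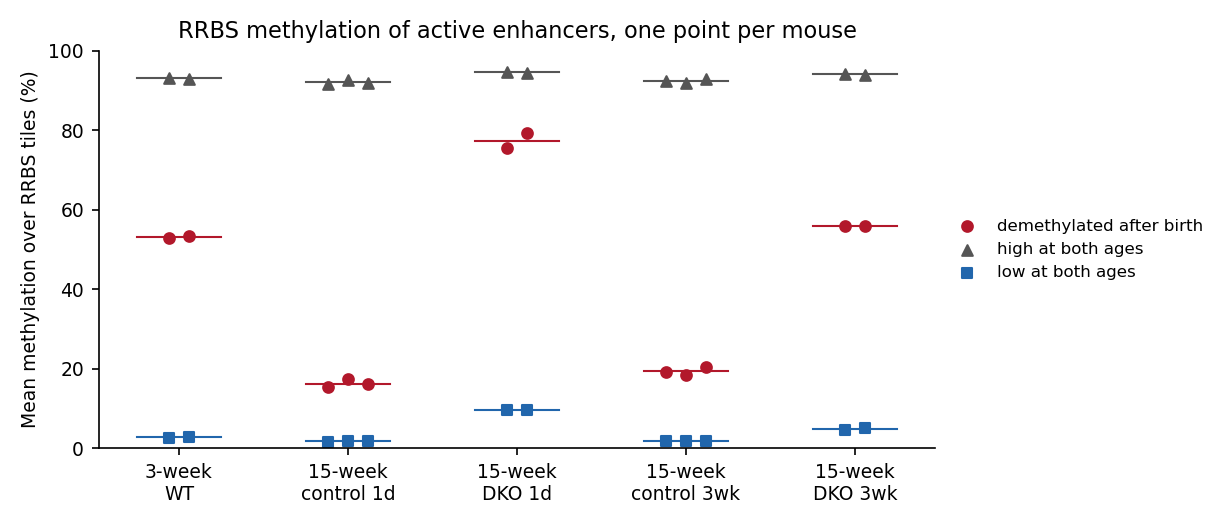
Mean RRBS methylation (vertical axis, %) of active enhancer tiles in 5 groups of mice (horizontal axis), 1 point per mouse with a line at the group mean, for tiles that WGBS found demethylated after birth (695 tiles), high at both ages (1249) or low at both ages (2874). Demethylated tiles sit at 15.4 to 20.3% in the 6 controls, at 75.6 and 79.2% in DKO injected at 1 day and at 55.8% in both DKO injected at 3 weeks.

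The difference was largest in the tiles that WGBS had placed in the class demethylated after birth. Over 695 such tiles the mice of 3 weeks averaged 52.8% and 53.5%. Controls injected at 1 day were at 15.4%, 17.3% and 16.1%, and DKO injected at 1 day at 75.6% and 79.2%. Controls injected at 3 weeks were at 19.1%, 18.5% and 20.3%, and DKO injected at 3 weeks at 55.8% and 55.8%. Thus the DKO injected at 3 weeks had about the level that WT mice had at 3 weeks, and the DKO injected at 1 day stood above it. In RNA-Seq of the same animals the mice of 3 weeks had high Xist and the DKO did not. Sex is thus confounded with age and genotype in this comparison. Hepatocytes of 1 week kept in vitro were at 74.8% and 71.0%, and 2 mice whose hepatocytes lacked the insulin receptor at 33.9% and 44.4%. The same tiles were at 55.6% in fat and 75.6% in neutrophils, 1 sample each. In the tiles low at both ages, controls ranged from 1.58% to 1.89%, while DKO injected at 1 day were at 9.50% and 9.68% and DKO injected at 3 weeks at 4.64% and 4.99%. In the tiles high at both ages, all 12 mice of the fit lay between 91.7% and 94.6%.

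Tile by tile, limma with Benjamini-Hochberg adjustment over 379417 tiles was used, and a tile was called at an adjusted p under 0.05 and at least 35 points. After deletion at 1 day, 1744 of 10838 enhancer tiles, or 16.1%, were higher than in controls, against 1.34% of all tiles. None was lower by this rule, where 0.0467% of all tiles were (without the 35-point limit limma gave 7 lower tiles, and 80 at an unadjusted p under 0.05). After deletion at 3 weeks, 460 enhancer tiles, or 4.24%, were higher (0.359% of all tiles) and 1 was lower (0.0387% of all tiles). Among the 1280 tiles of the demethylated class, 900, or 70.3%, were higher after deletion at 1 day and 302, or 23.6%, after deletion at 3 weeks. Over all RRBS tiles of this class the shares were 62.2% and 21.0%, near those of the enhancers. Among 4048 tiles low at both ages the numbers were 272 and 40, or 6.72% and 0.988%. Over all RRBS tiles low at both ages the shares were 0.566% and 0.0715%. A tile high at both ages has no room for a rise of 35 points, so that class was not counted. The count after deletion at 3 weeks rests on 3 controls and 2 DKO mice, and without the first or the second control it was 279 or 266.

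5hmC, an intermediate of TET-driven demethylation, was measured in WT mice of 20 days. A 5hmC peak overlapped 48.9% of the active enhancers (95% Wilson interval 48.1 to 49.6, counting error only), against 23.9% of primed and 39.2% of proximal regions. Median lengths followed the same order in active and primed regions, and peaks per Mb numbered 233 in active enhancers, 238 in primed and 194 in proximal regions. On tiles of equal length the classes differed: 25.9% of the demethylated tiles of active enhancers overlapped a 5hmC peak (25.5 to 26.4). The share was 22.4% in tiles between the classes, 17.7% in tiles high at both ages and 11.8% in tiles low at both ages. Demethylated tiles of proximal regions were higher still, at 28.7% (28.1 to 29.3), while those of primed regions were at 16.0% and those outside H3K4me1 peaks at 14.5%. Enhancers with a demethylated tile had a 5hmC peak in 58.9% and those without in 36.5%, with median lengths of 2901 and 1432 bp.

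Chromatin at the enhancers was examined by ATAC-Seq, which cuts open DNA, in wt and in ko deleted after birth. An ATAC-Seq peak overlapped 49.5% and 50.1% of the active enhancers in the wt libraries and 46.9% and 56.5% in the ko libraries. The groups overlap, so over whole enhancers the difference of 1.89 points was within the spread between libraries, and it was -0.504 points with the same number of top-scoring peaks in every library. With 2 against 2 libraries, the smallest p that an exact permutation test can give is 0.333, and no other test was run on these assays. Primed regions were open in 17.0% and 23.7% in wt and 22.8% and 28.5% in ko.

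**Figure D4:**
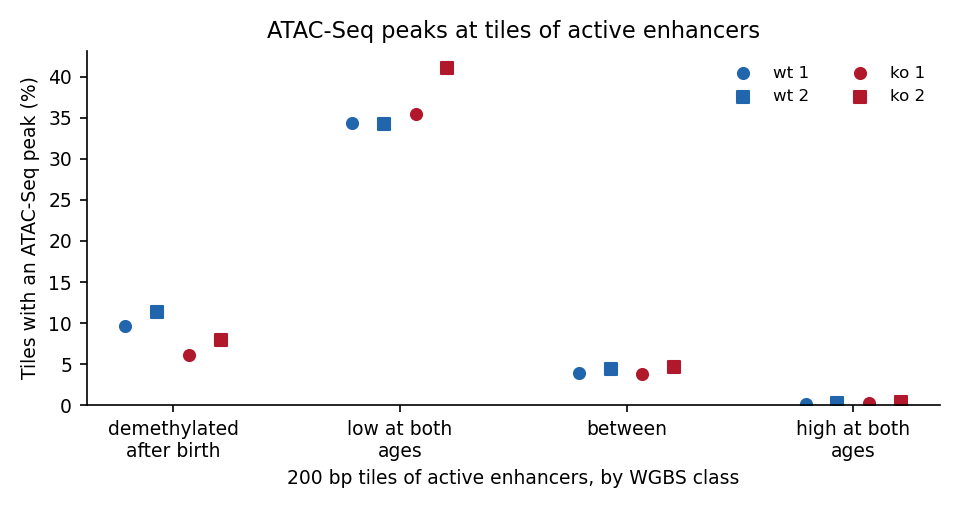
Share of 200 bp tiles of active enhancers that overlap an ATAC-Seq peak (vertical axis, %) by WGBS class (horizontal axis), 1 point per library, 2 wt and 2 ko. In tiles demethylated after birth both ko libraries (6.16 and 7.90%) lie below both wt libraries (9.65 and 11.3%), while in tiles low at both ages, between the classes and high at both ages the groups overlap or ko is higher.

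In the demethylated tiles, a comparison added after seeing the data, the groups stood apart. A peak overlapped 9.65% and 11.3% of them in wt and 6.16% and 7.90% in ko, a difference of -3.47 points between group means. With the same number of top-scoring peaks in every library the shares were 9.65% and 9.68% in wt and 5.88% and 5.67% in ko. In tiles low at both ages they were 34.4% and 34.2% in wt and 35.5% and 41.1% in ko, with ko the higher. In tiles between the classes the groups overlapped, at 3.96% and 4.48% in wt and 3.77% and 4.65% in ko, and in tiles high at both ages no library passed 0.353%. Demethylated tiles of primed regions had 10.1% and 15.2% in wt and 9.31% and 11.8% in ko, which overlap, and those of proximal regions 3.88% and 4.77% against 2.43% and 2.99%, which do not. The class of a tile comes from WT methylation alone, and ATAC-Seq played no part in it. Still, low adult WT methylation and WT marks chose these tiles, so part of a tilt towards wt may be set by the choice. No reverse choice was made for these tiles.

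The same relation was seen from the side of accessibility. ATAC-Seq peaks of the 4 libraries were merged into 84705 sites, of which 17722 lay in active enhancers, and 41.1% of these were called in all 4 libraries. In the enhancers 985 sites, or 5.56%, were called in both wt libraries and in no ko library, against 2.96% of all sites. The reverse, called in both ko libraries and in no wt library, held for 688 sites, or 3.88%, against 5.04% of all sites. The enhancers were chosen on WT marks, so part of this tilt towards wt is set by the choice. No reverse choice was made for these sites. The sites open only in wt averaged 47.9% methylation in newborn, 8.25% in adult and 61.7% in DKO, and 78.5% of those with values were at least 35 points higher in DKO than in adult. By the same limit, sites open only in wt were higher in DKO in 73.2% in primed regions and in 58.3% over all sites. The sites open only in ko averaged 16.5%, 7.19% and 27.3%, with 21.6% higher by the limit, and the sites open in all 4 libraries 12.1%, 3.41% and 19.2%, with 17.2% higher. Sites lost from the ko peak lists were thus mostly those whose methylation was high in the DKO, while sites called in every library were low in all 3 WGBS libraries.

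HNF6 (Onecut1), a liver transcription factor, had peaks in 1531 and 2443 of the active enhancers in wt, or 8.43% and 13.4%, and in 2539 and 4682 in ko. With the same number of top-scoring peaks in each library, the shares were 8.43% and 8.39% in wt and 8.09% and 8.12% in ko, so the order of the groups turned with the number of peaks called.

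Windows of 300 bp around the middle of the strongest WT ATAC-Seq peak were searched on both strands for short motifs of hepatocyte factors in the mm9 sequence. They were compared with the same windows at all 104730 WT ATAC-Seq peaks, and a match is a run of letters and no proof of binding. Among 10545 enhancer windows, 3.33% held CAAAGTCCA of HNF4A, the nuclear receptor central to hepatocyte identity, against 1.66% of all peaks. The FOXA letters TGTTTAC, of pioneer factors that open liver enhancers, were in 9.88% against 6.52%. The CEBP letters TTGCNNAA were in 21.4% against 15.8% and the HNF1 letters GTTAATNAT in 3.66% against 2.01%. The HNF6 letters TATTGAT were in 5.93% against 4.14%, and in 9.52% of primed windows. In primed windows HNF4A letters were in 2.69%, FOXA letters in 9.85%, CEBP letters in 22.8% and HNF1 letters in 3.93%, against 3.33%, 9.88%, 21.4% and 3.66% in active enhancers. TCAAAGGTC, a nuclear receptor direct repeat that shares CAAAG with the HNF4A letters, was in 1.42% against 0.735%, and in 1.41% of primed windows. GAGGAAGT of PU.1, a factor of blood cells, was in 2.17% against 2.86%, and CAGGGGGCG of CTCF in 0.436% against 1.75%. All peaks include promoters, and their windows were richer in CpG sites, with a mean of 10.4 against 4.66. In enhancer windows whose middle lay in a demethylated tile, FOXA letters were in 6.22% (95% interval 5.15 to 7.50) and HNF1 letters in 1.91% (1.35 to 2.70). In windows in tiles low at both ages they were in 11.0% (10.2 to 11.8) and 4.16% (3.69 to 4.69). HNF4A letters differed in the same way, with 2.09% and 3.82%, while CEBP letters were in 19.2% and 21.8%. Of the printed windows, only that of Sash1 held a motif of the list, TTGCACAA of CEBP.

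The share of active enhancers that kept their histone marks in the DKO depended on the overlap asked for. An H3K4me1 peak of the DKO list overlapped 88.0% of them (87.5 to 88.4), an H3K27ac peak 73.2% (72.6 to 73.9), and both marks were kept by 12648, or 69.6%. When DKO peaks had to cover at least 50% of the enhancer the shares were 79.2% for H3K4me1 and 47.8% for H3K27ac, and with the top 50% of DKO peaks 53.6% and 47.4%. H3K4me1 alone was kept by 18.3%, H3K27ac alone by 3.61%, and neither by 1534, or 8.44%. Because the WT lists chose the enhancers, part of such a loss is set by the choice. The reverse choice, the same rule applied to the DKO lists, gave 20263 regions, of which 88.9% were in the WT H3K4me1 list, 67.4% in the WT H3K27ac list, 63.9% in both and 7.62% in neither. Regions chosen in either genotype were thus missing from the other's H3K27ac list more often than from its H3K4me1 list. Proximal regions kept H3K27ac in 95.4% and primed regions kept H3K4me1 in 68.4%.

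The enhancers without either mark in the DKO were short and weak in WT, with a median length of 930 bp against 2602 bp and 9.32 H3K27ac tags against 40.0 in those that kept both. Their methylation was 77.1% in newborn, 62.6% in adult and 80.1% in DKO, compared with 62.8%, 50.1% and 67.2% where both marks were kept. The DKO minus adult difference was nearly the same in both, 17.4 and 17.1 points. ATAC-Seq peaks were found in 16.6% and 20.8% of them in wt and in 5.48% and 8.80% in ko, while enhancers with both marks were at 60.1% and 59.1% in wt and 59.1% and 69.5% in ko. The enhancers without marks were chosen as called in WT and in neither DKO list. A lower share in ko is therefore partly set by the choice, and the reverse set was not examined. A demethylated tile was present in 43.5% of the enhancers without marks and in 62.7% of those with both. Put the other way, enhancers with a demethylated tile kept H3K4me1 in 91.5% and H3K27ac in 77.3%, and those without, which were shorter, in 83.4% and 68.1%.

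Enhancers were tied to genes by position alone, as the nearest gene of the expression table. The 18167 enhancers fell to 6463 gene entries, of which 4541 reached a mean of 1 FPKM in a group and were tested, 3390 of them with a demethylated tile in one of their enhancers. FPKM were fitted as log2(FPKM + 1) with limma, with Benjamini-Hochberg adjustment over 11166 genes, and fold changes are on that scale, which understates the change of low genes. In these sorted cells, fewer cells of a type and less RNA per cell cannot be told apart. The counts of genes below describe a proximity and say nothing of which enhancer acts on which gene.

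After deletion at 1 day, more genes near active enhancers were lower than higher, as among all genes. Of the 4541 genes, 843, or 18.6%, were lower than in controls (15.6% of all genes tested) and 181, or 3.99%, higher (4.33% of all). The shares are near the background. The median log2 fold change was -0.147, against -0.106 over all genes tested. Library medians were 2.41 to 2.43 in the DKO and 2.53 to 2.58 in controls. With library medians set equal, an alternative chosen after seeing the data, 665 genes near enhancers were lower and 541 higher, against 1323 and 1448 among all genes, so the excess of lower genes among all genes depends on the scaling. Single libraries moved the counts too: without control 3, 380 genes near enhancers were lower and 86 higher, and without DKO 1 the counts were 399 and 104. Without DKO 3 they were 558 and 122. With only the groups compared 550 were lower. Of the genes with a demethylated tile, 663, or 19.6%, were lower and 130, or 3.83%, higher. Of the genes near enhancers without such a tile, 15.6% were lower and 4.43% higher. The share of tested genes that was lower was 13.6% with no active enhancer, 17.9% with 1, 19.2% with 2 to 4 and 20.2% with 10 or more, and with 5 to 9 it lay between the values for 1 and for 2 to 4.

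**Figure D5:**
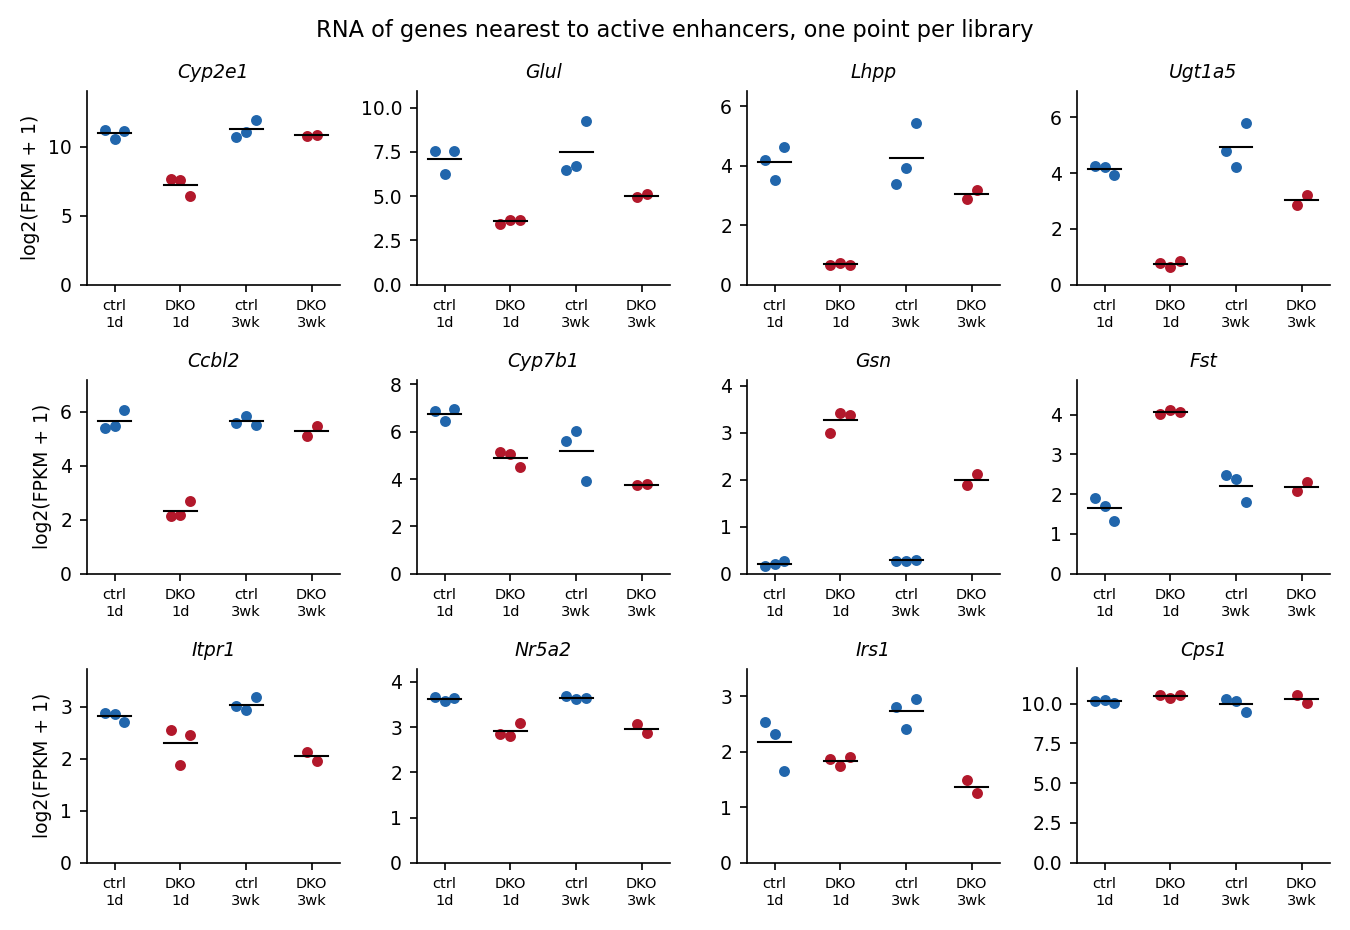
Expression of 12 genes nearest to active enhancers as log2(FPKM + 1) (vertical axes, each from 0) in 15-week controls and DKO injected at 1 day or 3 weeks (horizontal axes), 1 point per library with a line at the group mean. Cyp2e1, Glul, Lhpp, Ugt1a5, Ccbl2 and Cyp7b1 are lower and Gsn and Fst higher in every DKO library injected at 1 day than in its controls, and Cps1 stays near 10 in all groups.

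Among the genes with a demethylated tile, large falls were seen in enzymes and a transporter of the liver. Cyp2c29, with 1 active enhancer and no demethylated tile, fell further than Cyp2e1, by 4.69 on the log2 scale (limma adjusted p = 3.75e-08). Cyp2e1, a cytochrome P450 that oxidises ethanol and drugs near the central vein, has 3 active enhancers with 14 demethylated tiles. It was at 2366, 1542 and 2270 FPKM in controls and 207, 194 and 85.3 in DKO injected at 1 day, a log2 fold change of -3.74 (SE 0.35, limma adjusted p = 1.04e-05). After deletion at 3 weeks it was at 1818 and 1918 FPKM against 1711, 2189 and 4049 in controls, which overlap, and the difference between the deletion times was -3.33 (SE 0.52, limma adjusted p = 0.00804). The value of 4049 was that of control 3, which had high Xist. Glul, glutamine synthetase, was at 186, 76.7 and 184 FPKM in controls and 9.76, 11.8 and 11.6 in DKO (log2 fold change -3.53). Slc1a2, a glutamate transporter, was at 30.7, 13.6 and 27.4 against 0.786 to 1.76 (-3.42). All 3 genes are known for expression around the central vein. Ccbl2, a kynurenine aminotransferase with 8 active enhancers, was at 41.6, 44.0 and 66.1 FPKM in controls and 3.43, 3.51 and 5.53 in DKO, a log2 fold change of -3.32 (SE 0.20, limma adjusted p = 1.73e-07). It differed between the deletion times by -2.96 (SE 0.29, limma adjusted p = 1.53e-04), with 33.7 and 43.7 FPKM after deletion at 3 weeks against 47.2, 57.0 and 44.8.

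The phosphatase gene Lhpp was at 17.3, 10.5 and 23.6 FPKM in controls and 0.583 to 0.659 in DKO injected at 1 day. Ugt1a5, a glucuronosyltransferase, was at 18.1, 17.8 and 14.3 against 0.698, 0.550 and 0.789, and it shares exons with the other Ugt1a genes, so the split of its reads is uncertain. It was also lower after deletion at 3 weeks, with 6.30 and 8.19 FPKM against 26.8, 17.5 and 54.4 (log2 fold change -1.90, limma adjusted p = 0.0136). The value of 54.4 was again that of control 3. 1100001G20Rik fell at both times, by 3.12 and 2.61 on the log2 scale. Elovl3, an elongase of fatty acids, was at 182, 190 and 176 FPKM against 23.9, 12.2 and 10.3 (-3.57, SE 0.96, limma adjusted p = 0.0202). Its call was lost without DKO 3, control 1 or control 3 (adjusted p = 0.0655, 0.0501 and 0.0680).

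The largest rises included genes that were near 0 in controls. Mup11 and Mup15, of the major urinary protein family, were listed at 0 in the 3 controls injected at 1 day and at 101 to 164 and 24.0 to 42.0 FPKM in the DKO. Members of this family are near-identical, so which copy is meant is uncertain. Both were also at 0 in the uninjected 15-week mice and in controls injected at 3 weeks, except Mup15 at 140 FPKM in control 3. Alb was likewise listed at 0, so whether these zeros are failed estimates cannot be told, and both rises are uncertain. Gsn, the actin-severing protein gelsolin, was at 0.116, 0.160 and 0.206 FPKM in controls and 6.98, 9.80 and 9.35 in DKO injected at 1 day (3.05, SE 0.27, limma adjusted p = 6.86e-06). It was at 44.7 FPKM in the newborn library and fell from 3 to 15 weeks in WT, by 2.78 on the log2 scale. Fst, the activin inhibitor follistatin, was at 2.73, 2.28 and 1.49 against 15.2, 16.2 and 15.6 FPKM (2.42), with no rise after deletion at 3 weeks (3.19 and 3.96 against 4.55, 4.19 and 2.48). Gbp11, Cyp4a31 and 9030619P08Rik rose by 2.91, 2.91 and 2.56 on the log2 scale. The calls of Mup15 and 9030619P08Rik were lost without some single libraries, with adjusted p of up to 0.0703 and 0.0759.

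Of the gene lists chosen for liver function, the P450 enzymes moved most. Of 16 tested, 8 had an active enhancer nearest to them, 8 were lower in DKO injected at 1 day (Cyp1a2, Cyp2c29, Cyp2c37, Cyp2c50, Cyp2c54, Cyp2e1, Cyp7b1 and Cyp8b1) and 2 higher (Cyp4a10 and Cyp4a14). Of the 8 genes with an active enhancer 4 were lower and none higher, and of the 8 without one 4 were lower and 2 higher. The median log2 fold change of the 16 was -1.30, against -0.106 over all genes, and -1.16 with library medians set equal. Cyp7b1, an enzyme of bile acid and oxysterol metabolism with 6 active enhancers, was at 116, 87.6 and 125 FPKM in controls and 34.3, 32.1 and 21.5 in DKO (-1.88, SE 0.38, limma adjusted p = 0.00540). After deletion at 3 weeks 3 P450 genes were lower and none higher.

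Hepatocyte transcription factors had many active enhancers, 88 near 17 of 20 genes. After deletion at 1 day 5 were lower, among them Cebpb, Hnf4a, Nr1i3 and Nr5a2, and none higher, with a median of -0.21. With library medians set equal, 4 were lower and 1, Esrra, higher, with a median of -0.07. Nr5a2, a nuclear receptor of bile acid synthesis with 14 active enhancers, was at 11.7, 10.9 and 11.5 FPKM in controls and 6.14, 6.02 and 7.52 in DKO (-0.72, SE 0.16, limma adjusted p = 0.00926). After deletion at 3 weeks it was at 7.32 and 6.32 against 11.9, 11.3 and 11.5. Prox1, with 15 active enhancers, was at 21.7, 7.79 and 9.70 FPKM against 12.9, 5.76 and 16.0, which overlap.

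Other lists moved less. Of 10 genes of insulin and growth hormone signaling, Igf1 and Stat5b were lower and Igfbp1 higher after deletion at 1 day, and Irs1, Irs2 and Stat5b were lower after deletion at 3 weeks. The call of Igf1, with 6 active enhancers, was lost with only the groups compared (limma adjusted p = 0.0652), with all genes above 0 (0.0562) and in 4 of 6 fits that left out 1 library (up to 0.165). Irs1, an adaptor of the insulin receptor with 6 active enhancers, was at 1.81 and 1.39 FPKM after deletion at 3 weeks and at 6.03, 4.32 and 6.78 in controls (-1.36, SE 0.24, limma adjusted p = 0.00789). Ghr, the growth hormone receptor with 20 active enhancers and 90 demethylated tiles, was at 151, 140 and 167 against 131, 120 and 131 FPKM after deletion at 1 day (-0.25, limma adjusted p = 0.277). Of 10 glucose genes 1 (Gys2) and of 6 urea cycle genes 1 (Nags) were lower. Cps1, the entry enzyme of the urea cycle, has 16 active enhancers with 83 demethylated tiles and was at 1159, 1216 and 1055 against 1482, 1284 and 1510 FPKM (0.32, limma adjusted p = 0.384). Apob, the main protein of very low density lipoprotein, has 17 active enhancers and had a log2 fold change of 0.20 (limma adjusted p = 0.618). Of 12 lipid genes 2, among them Acaca, were higher and 1 lower, among 13 plasma proteins Fgg was higher, and of the fetal liver genes H19.

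The genes with most active enhancers changed little after deletion at 1 day. Zbtb20, with 39 active enhancers, was at 4.95, 2.49 and 3.56 FPKM in controls and 2.17, 0.738 and 3.16 in DKO (-0.68, limma adjusted p = 0.121). Arid1b, Nfia, Foxp1, Rreb1, Lpp, Magi1, Prkce, Itpr1 and Foxn3 had 26 to 33 each, and of the 10 genes only Itpr1 passed the test. Itpr1, another IP3 receptor, was at 6.42, 6.24 and 5.54 against 4.89, 2.70 and 4.53 FPKM (-0.51, SE 0.16, limma adjusted p = 0.0409), a call lost with library medians set equal (adjusted p = 0.0635) and in 5 of 6 fits that left out 1 library. After deletion at 3 weeks it was at 3.41 and 2.88 FPKM against 7.05, 6.70 and 8.11 (SE 0.18 on the log2 scale, limma adjusted p = 0.00912).

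After deletion at 3 weeks fewer genes passed. Control 3 had Xist at 88.1 FPKM, against 0.0191 or less in the DKO. The part of sex in these counts was not tested. Of the 4541 genes, 321, or 7.07%, were lower (4.34% of all genes tested) and 35, or 0.771%, higher (0.905% of all). Among tested genes the share that was lower was 2.48% with no active enhancer, 5.60% with 1, 6.44% with 2 to 4, 10.3% with 5 to 9 and 13.7% with 10 or more. Median control FPKM over all genes of these classes was 0.0255, 1.77, 3.71, 5.71 and 6.19, so expression moved with the number of enhancers, and its part in these shares was not tested. With library medians set equal 284 genes were lower and 209 higher (421 and 802 among all genes). These counts depend on the fit and on single libraries: with only the groups compared 8 were lower and 2 higher, and without the second DKO 19 and 5. Endothelial markers summed to 10.9 to 23.0 FPKM in DKO injected at 3 weeks and 3.77 to 10.2 in controls, without overlap, and of the 6 tested Lyve1 was higher and none lower. Kupffer cell markers summed to 5.44 to 9.09 and 1.60 to 7.74 FPKM, which overlap, with none of 6 called. The part of these cells in the counts at 3 weeks was not tested. The calls at 3 weeks named above for Irs1, Itpr1, Ugt1a5, 1100001G20Rik and Nr5a2 were all lost with only the groups compared, at limma adjusted p = 0.0937, 0.0757, 0.130, 0.0757 and 0.0900.

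From 3 to 15 weeks in WT, 1436 of the 4541 genes, or 31.6%, were higher (24.0% of all genes tested) and 365, or 8.04%, lower (9.32% of all). Among the 3390 genes with a demethylated tile, 1150, or 33.9%, were higher and 265, or 7.82%, lower. The shares were 24.8% and 8.69% among genes near enhancers without such a tile. With library medians set equal, 961 were higher and 790 lower (1676 and 2196 among all genes). Ugt1a5 rose from 0.393, 1.71 and 0.352 FPKM to 16.3, 23.7 and 20.4, and Cyp7b1 from 0.778, 0.647 and 0.836 to 75.9, 102 and 84.4. Of the genes named for a fall in DKO injected at 1 day, Ccbl2 went the other way, from 78.6, 61.8 and 75.4 FPKM to 33.1, 37.1 and 41.0. Age and sex are confounded here, and markers of other cells moved too. The 6 Kupffer cell markers tested were all lower at 15 weeks, with sums of 5.66 to 15.0 FPKM at 3 weeks and 1.16 to 2.05 at 15 weeks, as were the 6 endothelial markers, with 12.6 to 21.4 and 2.37 to 5.08. Between DKO injected at 1 day and controls the Kupffer sums were 1.87 to 3.74 and 4.68 to 7.74, the endothelial sums 3.58 to 6.02 and 5.92 to 9.23, and the hepatocyte sums 12583 to 16167 and 13279 to 17725. Apart from Alb, no gene of the marker lists was at 0 in all libraries, and the part of these cells in the counts was not tested.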

How the data were processed

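The enhancers, gene lists, markers and motifs were chosen with earlier results of these data known. The authors aligned bisulfite reads to mm9 with BSMAP 2.74 after Trim Galore 0.3.3 and deposited, per 200 bp (WGBS, autosomes, at least 15 CpG readings) or 100 bp tile (RRBS, at least 10), the fraction methylated, here multiplied to percent. RRBS columns that carry an animal number were tied to a group where the expression table names that animal. In all, 49 columns could not be tied to a group and were not used. The authors made FPKM with TopHat2 and Cufflinks and deposited them per gene. For ChIP-Seq, ATAC-Seq and 5hmC they aligned with Bowtie2 2.2.4 (cutadapt 1.15) and called peaks per library with HOMER. Per the file headers, the peak signal is tags scaled to 10000000 and the score is HOMER's.

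Peaks overlapped at 1 bp or more, and tiles had to lie wholly inside an enhancer. limma 3.58.1 (R 4.3.3) was run on RRBS percentages and on log2(FPKM + 1), with all groups fitted together, a trended empirical Bayes variance and p-values adjusted by Benjamini-Hochberg. Intervals are 95% Wilson intervals and cover counting error only. Exact permutation limits are two-sided. Scripts were tested on simulated data. Python 3.11.15 was used. Named enhancers had the greatest loss between newborn and adult (4), the greatest DKO minus adult difference (4), the highest H3K27ac score (4) or the greatest length (2), each with at least 5 tiles. Named genes had the largest log2 fold changes past the threshold after deletion at 1 day with no overlap between libraries and a demethylated tile (8 falls, 8 rises), the most enhancers (10), or at least 5 enhancers and a place in a list. Tet2, Tet3, Xist and the calls in lists were named beside these. Insulin receptor knockouts, cultures, fat and neutrophils were described without a test. Some genes and 1 enhancer that met these rules are not reported here.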

Additional observations from a re-analysis of the deposited data

Results flagged for a closer look

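The effect of the deletion differed between injection at 1 day and at 3 weeks, by limma's test of the difference of the 2 effects (adjusted p under 0.05, for tiles also at least 35 points). In 319 RRBS tiles of active enhancers, or 2.94%, the rise over controls was larger after deletion at 1 day, against 0.201% of all tiles, and in none was it smaller by this rule (133 at an unadjusted p under 0.05). Of these, 176 were among the 1280 tiles demethylated after birth, or 13.8%, against 10.8% of all RRBS tiles of that class. Among the genes nearest to active enhancers the effect was higher at 1 day in 121 and lower in 135, or 2.66% and 2.97%, against 2.33% and 3.04% of all genes tested. Ccbl2 and Cyp2e1 were among the lower ones. The controls injected at 3 weeks include the animal with high Xist, and the part of sex in these differences was not tested.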

How the results depend on the processing

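Outside the fits that left out a library, 59 of 106 values stayed within their limits and 47 moved. The sign turned for ko minus wt of HNF6 and of ATAC-Seq over whole enhancers, and no named gene reversed. The enhancers numbered 10968 with H3K27ac over at least 50% of the peak and 6864 from the 50% of peaks with the highest scores. With these sets, newborn minus adult was 13.8 and 14.7 points and DKO minus adult 18.1 and 19.0, with 20934 and 15265 demethylated and 29441 and 21434 DKO-higher tiles. With medians over enhancers the differences were 15.6 and 20.7 points, over all tiles 13.5 and 17.6, with tiles touched by 1 bp 11.8 and 15.4, and with distance taken from the peak centre 12.9 and 17.0. A limit of 50 points gave 17627 and 26156 tiles. The share with 5hmC was 23.8% for the top 50% of 5hmC peaks, 40.5% for peak middles, 51.9% by peak centre and 54.3% in the top set. H3K4me1 was kept in 79.2% at 50% cover, 53.6% for the top 50% of DKO peaks, 89.7% by peak centre, and 86.6% and 93.7% in the 2 smaller sets. H3K27ac was kept in 47.8%, 47.4%, 77.3%, 78.8% and 83.2% in this order, and 72.5% beyond 5 kb.

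For ATAC-Seq at demethylated tiles, ko minus wt was -1.36 points with the top 50% of peaks, -4.70 with peaks of 200 bp, -5.03 at a limit of 50 points, and -4.34 to -2.60 without a library. This comparison and its alternatives were chosen after seeing the data. Over whole enhancers it was 1.89, -0.504 with equal numbers of peaks and -2.94 to 6.71 without a library. For HNF6 ko minus wt was 8.94 points, -0.305 with equal numbers of peaks and 3.04 to 14.8 without a library. As a replicate block, pairing libraries by replicate number, the values were 1.89 for ATAC-Seq, 8.94 for HNF6 and -3.47 at demethylated tiles, equal to the differences of means by construction. No paired analysis was possible for RRBS and RNA-Seq because the columns carry no replicate numbers.

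Without a library, RRBS tiles numbered 1381 to 1500 after deletion at 1 day and 266 to 428 after deletion at 3 weeks. Genes at 1 day were 86 to 163 higher and 380 to 817 lower, at 3 weeks 5 to 30 and 19 to 216, and by age 996 to 1489 and 277 to 522. With equal medians 541 were higher at 1 day, 209 higher at 3 weeks and 790 lower by age. With only the groups compared, 550 were lower at 1 day, and 2 higher and 8 lower at 3 weeks. With all genes above 0, 21 were higher and 175 lower at 3 weeks.

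The depth of single methylation values is unknown beyond minima of 15 (WGBS) and 10 (RRBS) readings per tile, and WGBS, 5hmC and histone marks had 1 library per group.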
